A study of Homo sapiens with 18 samples.

Results

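The question addressed here was whether the transcript response to 12 h of the PARP inhibitor (PARPi) olaparib differed between the 2 HCC1937 lines of the study. It was answered with the difference of the changes, that is the change from 0 h to 12 h in HCC1937-OE-BRCA1 minus the change from 0 h to 12 h in HCC1937-EV. The contrast rests on 12 of the 18 RNA-seq libraries of the series, 3 for each line at 0 h and at 12 h. HCC1937 is a breast cancer line with a mutated BRCA1, the gene of a protein that homologous recombination needs. By the study's description, HCC1937-EV carries an empty vector and HCC1937-OE-BRCA1 overexpresses wild-type BRCA1 beside the endogenous truncated form. The labels give the genotypes as WT for the former and BRCA1 overexpression for the latter, and they list olaparib for the 0 h libraries too, which the study describes as untreated. Neither source says whether the 3 libraries of a group came from separate cultures, so p-values measure only the spread between libraries, to which the 6 libraries at 24 h also contributed in the fit. Total counts lay between 16177164 and 16441338 in HCC1937-EV at 0 h, between 15081973 and 15839766 at 12 h, between 15895450 and 16732025 in HCC1937-OE-BRCA1 at 0 h and between 15536971 and 16501734 at 12 h. Of 35044 genes in the table, 18335 passed the filter on low counts and were tested, and 12307 of these had a mean of at least 1 CPM (counts divided by the TMM-normalized library size and scaled to 1e6) in both lines over the 0 h and 12 h libraries. Single genes are described only among these 12307. The other 6028 tested genes had a mean below 1 CPM in at least 1 of the lines.

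The lines were first checked against genes of basal and epithelial cells, which HCC1937, a basal-like line, is known to express, and several of these were near 0 in the HCC1937-EV libraries, against their label. Of 12 genes of basal and epithelial cells, all 12 had a mean of at least 1 CPM in HCC1937-OE-BRCA1 and 4 in HCC1937-EV, and the summed level was 8778 to 11100 CPM in the former and 2614 to 3310 CPM in the latter. The basal keratin KRT5 lay between 1267 and 1742 CPM in HCC1937-OE-BRCA1 and at no more than 0.124 CPM in HCC1937-EV. The epithelial adhesion genes EPCAM (252 to 347 CPM against at most 0.0617 CPM) and CDH1 (388 to 488 CPM against 0.312 to 0.883 CPM) showed the same split, and VIM, which encodes the mesenchymal intermediate filament vimentin and is left out of the 12, had the opposite split (0.636 to 1.33 CPM against 253 to 335 CPM). The simple-epithelial keratin KRT8 was abundant in both, at 1683 to 2182 CPM in HCC1937-EV and 3241 to 4385 CPM in HCC1937-OE-BRCA1. Of 7 leukocyte genes 4 were in the table, with a summed level of 1.15 to 2.24 CPM in HCC1937-EV, 33.8 to 48.5 CPM in untreated and 75.7 to 84.0 CPM in treated HCC1937-OE-BRCA1. CD14 made up nearly all of it in the latter line, at 31.5, 48.0 and 42.3 CPM and then 83.4, 74.5 and 75.1 CPM, while the pan-leukocyte gene PTPRC had no count in HCC1937-EV and 0.431 to 2.22 CPM in HCC1937-OE-BRCA1. The 8 fibroblast and endothelial genes summed to 99.6 to 136.3 CPM in HCC1937-EV, most of it COL1A1, and to 17.2 to 29.2 CPM in HCC1937-OE-BRCA1. The part of these genes in the results was not tested. The targeted gene, BRCA1 (ENSG00000012048.23, chromosome 17 of GRCh38, 43044295 to 43170245), was at 126, 111 and 117 CPM in HCC1937-EV at 0 h and 118, 117 and 94.8 CPM at 12 h. The HCC1937-OE-BRCA1 libraries held it at 166, 122 and 127 CPM and 114, 129.6 and 126 CPM. These ranges overlap between the lines, and the difference of the 12 h changes in BRCA1 was −0.07 (SE 0.16, adjusted p = 0.912), which was not called. It ranged from −0.17 to 0.08 when single libraries were left out, and a joint correction for the GC content and length of genes gave −0.28 (adjusted p = 0.0315), a lower call. Gene counts do not separate the introduced from the endogenous transcript. BRCA1 status and the other differences between the lines therefore cannot be told apart in any result of this contrast, and line names are used below as the labels give them.

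As background, PARP enzymes mark DNA breaks with ADP-ribose, and olaparib blocks them and holds PARP1 on DNA. Double-stranded RNA or DNA in the cytosol is read by sensors such as MDA5 (IFIH1) and cGAS, whose signal reaches interferon genes through IRF3 and NF-kB. Secreted interferon then acts through JAK kinases and a complex with STAT2 and IRF9 on the interferon-stimulated response element, which switches on a large set of antiviral genes. In breast cancer cells this program raises antigen presentation and the release of T-cell attracting chemokines.

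Genes called with a more positive change at 12 h in HCC1937-OE-BRCA1 included 26 of 92 measured interferon-related genes, and a smaller set called with a less positive or more negative change included 3 mitotic genes, AXL, F3 and CCN1. Of the 12307 genes, 68 were called with a higher and 26 with a lower change in HCC1937-OE-BRCA1 (edgeR's quasi-likelihood test, Benjamini-Hochberg adjusted p under 0.05 over all 18335 genes), which is 0.553% and 0.211% of them. Over all tested genes the calls were 69 higher and 26 lower, or 0.376% and 0.142%, so 1 of the higher calls fell on a gene below 1 CPM in a line. Unadjusted p-values under 0.05 were obtained for 2278 of the 12307 genes. The median difference over the 12307 genes was −0.02 on the log2 scale, with 5808 positive and 6499 negative differences. Of the 68 genes called higher, 45 had a positive change in HCC1937-OE-BRCA1 beside a negative one in HCC1937-EV, and 23 had positive changes in both. The change in HCC1937-EV was within 0.25 log2 units of 0 for 45 of the 68. Of the 26 called lower, 19 had a negative change in HCC1937-OE-BRCA1 beside a positive one in HCC1937-EV, and 7 had negative changes in both. The larger of the 2 changes was that of HCC1937-OE-BRCA1 for 62 of the 68 and for 17 of the 26. Over the 0 h and 12 h libraries together, the mean level was higher in HCC1937-OE-BRCA1 for 51 of the 68 and for 10 of the 26. This mean includes the treated libraries that the calls rest on. The share over all 12307 genes is not given, so the counts are a description only.

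**Figure D1:**
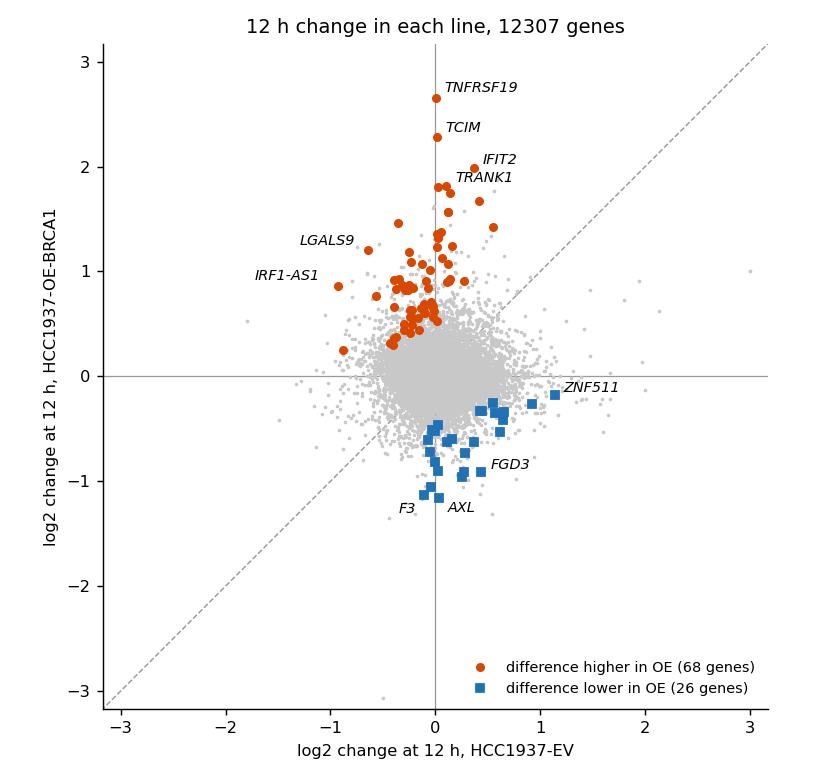
Log2 change at 12 h in HCC1937-EV (horizontal) and HCC1937-OE-BRCA1 (vertical) for 12307 genes (grey), with the 68 genes called higher as orange circles and the 26 called lower as blue squares. Dashes mark equal changes, and most of the genes called higher lie along the vertical axis, with 45 of them within 0.25 of 0 in HCC1937-EV.

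These counts were sensitive to single libraries, to the choice of model and to the joint correction for GC content and length. Without replicate 1 of the untreated HCC1937-OE-BRCA1 libraries, 261 genes were called higher and 475 lower, and with a correction for GC content and length 257 and 380. With no filter on low counts the numbers were 221 and 377, so that the share of higher calls passed from a majority to a minority under each of these settings. The higher calls fell to 45 without replicate 2 of untreated HCC1937-EV and to 41 without replicate 2 or replicate 3 of HCC1937-OE-BRCA1 at 12 h. The lower calls came to 12, 10 and 8 without replicates 1, 2 and 3 of untreated HCC1937-EV, to 69 and 13 without replicates 1 and 2 of HCC1937-EV at 12 h, to 6 without replicate 2 of untreated HCC1937-OE-BRCA1, and to 14, 7 and 8 without replicates 1, 2 and 3 of its 12 h libraries. The fit to the 12 libraries alone called 31 genes higher and 6 lower, DESeq2's Wald test 204 and 142, and limma 165 and 151. Every one of the 94 genes had the same sign of difference in all 19 alternative fits made for single genes.

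Interferon-related genes made up 26 of the 68 genes called higher and none of the 26 called lower. They came from 10 lists with 143 genes in all, of which 136 were tested and 92 had at least 1 CPM in both lines, while 44 were below 1 CPM in HCC1937-EV. Of the 92, 75 had a positive difference, and the median was 0.60, against −0.02 over the 12307 genes. The median change of the 92 was 0.55 in HCC1937-OE-BRCA1 and 0.01 in HCC1937-EV. Each of the 26 called genes had the larger change in HCC1937-OE-BRCA1. Each also had the higher mean level there over the 0 h and 12 h libraries, which include the treated libraries that the calls rest on. The count was 44 with the GC and length correction, 16 in a fit to the 12 libraries alone and between 22 and 39 with each library left out in turn. No interferon gene except IFNE reached 1 CPM in both lines, and its difference of 0.63 (SE 0.54, adjusted p = 0.615) was not called. It was 0.39, 1.03 and 0.36 without replicates 1, 2 and 3 of untreated HCC1937-EV.

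Among sensors of double-stranded RNA and their adaptors, 3 of 8 measured genes were called higher and none lower, all 8 differences were positive, and the median was 0.75. The list had 3 more genes below 1 CPM in HCC1937-EV. IFIH1, which encodes the sensor MDA5, was at 148, 118 and 109 CPM in HCC1937-OE-BRCA1 at 0 h and 297, 304 and 282 CPM at 12 h. In HCC1937-EV it was at 9.94, 6.80 and 6.85 CPM and 9.99, 6.19 and 7.60 CPM, where treated and untreated libraries overlapped. The difference was 1.22 (SE 0.22, adjusted p = 0.00962). ADAR, the enzyme that edits adenosine to inosine in double-stranded RNA, was at 836, 692 and 854 CPM and then 1091, 1137 and 1144 CPM in HCC1937-OE-BRCA1. Its level in HCC1937-EV lay lower in each treated library than in each untreated one, at 613, 657 and 631 CPM and then 514, 526 and 501 CPM. The changes were thus 0.50 and −0.30, with a difference of 0.80 (SE 0.13, adjusted p = 0.00344). TRIM25, a ubiquitin ligase of the RIG-I pathway, started at a similar level in both lines, at 184, 182 and 217 CPM in HCC1937-OE-BRCA1 and 218, 234 and 233 CPM in HCC1937-EV, and reached 309, 305 and 307 CPM in the former and 196, 229 and 212 CPM in the latter. The difference was 0.77 (SE 0.13, adjusted p = 0.0055). Not called were TLR3, the endosomal sensor (1.09, SE 0.29, adjusted p = 0.104), the kinase PKR, encoded by EIF2AK2 (0.71, SE 0.22, adjusted p = 0.172), and the adaptor MAVS (0.05, SE 0.14, adjusted p = 0.962). With the GC and length correction all 3 were called, TLR3 at 0.98 (adjusted p = 0.00831) and EIF2AK2 at 0.50 (adjusted p = 0.00162), while MAVS turned to −0.26 (adjusted p = 0.0382). TLR3 and EIF2AK2 were also called without replicate 1 of untreated HCC1937-OE-BRCA1. IRF3, the transcription factor downstream of MAVS, had a difference of −0.44 (SE 0.23, adjusted p = 0.384), from 116, 183 and 188 CPM to 173, 144 and 144 CPM in HCC1937-OE-BRCA1 and from 72.2, 77.1 and 78.2 CPM to 74.8, 90.8 and 127 CPM in HCC1937-EV. It was −0.64 without replicate 1 of untreated HCC1937-OE-BRCA1 and −0.20 without replicate 3 of HCC1937-EV at 12 h. These 4 uncalled genes were chosen after their values were seen. In the list of interferon regulatory factors and their kinases, IRF1 was the only 1 of 5 measured genes called, at 0.68 (SE 0.15, adjusted p = 0.0464), and its call held in 2 of the 12 leave-one-out fits (each without 1 of the 12 libraries), with an adjusted p of up to 0.143 there.

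Signalling genes downstream of the receptors gave 2 calls among 9 measured, both of them higher. STAT2, which acts on DNA together with IRF9, had the lowest adjusted p of the contrast together with OAS1. It was at 67.8, 62.8 and 69.4 CPM at 0 h and 169, 168 and 166 CPM after 12 h in HCC1937-OE-BRCA1, against 35.1, 41.5 and 39.4 CPM and 38.6, 40.0 and 39.6 CPM in HCC1937-EV. The difference of 1.30 (SE 0.12, adjusted p = 5.27e-06) made the ratio of treated to untreated level 2.47-fold larger, and the call held in all 19 alternative fits. The list's median was 0.36, with 0.59 without replicate 3 of untreated HCC1937-EV and 0.63 without replicate 2 of its 12 h libraries. Among brakes of the pathway, USP18, a protease that removes ISG15 and holds back the type I receptor, was the 1 call of 7 measured genes, at 0.94 (SE 0.15, adjusted p = 0.00269).

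The antiviral effectors held 18 of the 26 interferon-related calls. Of 41 measured genes 18 were called higher and none lower, 39 differences were positive, and the median was 0.77, with median changes of 0.78 in HCC1937-OE-BRCA1 and 0.00 in HCC1937-EV. Per library, the median deviation of the 41 genes from the untreated mean was 0.77, 0.77 and 0.80 in the 3 treated HCC1937-OE-BRCA1 libraries and 0.11, −0.06 and −0.10 in those of HCC1937-EV. Another 16 members were below 1 CPM in HCC1937-EV.

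IFIT1, IFIT2 and IFIT3 encode proteins that bind viral RNA and block its translation, and they are neighbours on chromosome 10 of GRCh38 (89392546 to 89406486, 89283694 to 89309276 and 89327894 to 89340971). In HCC1937-OE-BRCA1, IFIT1 was at 105, 92.0 and 70.3 CPM at 0 h and 272, 271 and 251 CPM at 12 h, while in HCC1937-EV it was at 8.39, 6.30 and 7.59 CPM and 8.71, 8.25 and 7.26 CPM. The groups were apart in the former line and overlapped in the latter, and the difference was 1.45 (SE 0.21, adjusted p = 0.00113). IFIT2 was at 42.9, 36.1 and 33.8 CPM and then 141, 153 and 154 CPM in HCC1937-OE-BRCA1, and at 6.77, 5.62 and 5.12 CPM and then 8.84, 7.31 and 6.38 CPM in HCC1937-EV. Its difference of 1.63 (SE 0.18, adjusted p = 5.51e-05) was the largest of the 3, although its change in HCC1937-EV, at 0.36, was also the most positive of the 3. IFIT3 gave 72.1, 67.3 and 58.1 CPM and 237, 225 and 201 CPM against 5.40, 3.77 and 5.12 CPM and 6.34, 4.63 and 4.82 CPM, with a difference of 1.60 (SE 0.20, adjusted p = 0.000152). All 3 overlap LIPA on the other strand in the annotation, and whether counting used strand is not given in the sources used here. LIPA itself, a lysosomal lipase gene chosen for this check after values were seen, had a difference of 0.44 (SE 0.15, adjusted p = 0.212), and it was called at 0.45 (adjusted p = 0.0103) with the GC and length correction.

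OAS1 and OAS3 encode enzymes that make the 2′-5′ oligoadenylates which activate RNase L, and OASL an enzymatically inactive relative. OAS1 was at 133, 143 and 132 CPM and then 358, 351 and 335 CPM in HCC1937-OE-BRCA1, and at 30.9, 29.7 and 30.5 CPM and then 33.3, 30.9 and 27.9 CPM in HCC1937-EV, which gave a difference of 1.34 (SE 0.12, adjusted p = 5.27e-06). OAS3 went with it at 1.21 (SE 0.17, adjusted p = 0.00111), from 591, 467 and 656 CPM to 1148, 1199.5 and 1264 CPM in HCC1937-OE-BRCA1 and from 89.9, 93.1 and 98.2 CPM to 74.3, 95.1 and 87.2 CPM in HCC1937-EV. For OASL the treated HCC1937-EV libraries also lay above the untreated ones, going from 7.33, 7.60 and 6.66 CPM to 10.6, 9.13 and 11.9 CPM without overlap, beside 101, 129.9 and 117 CPM and 334, 299 and 298 CPM in HCC1937-OE-BRCA1. Its changes were 1.42 and 0.55, and the difference was 0.88 (SE 0.16, adjusted p = 0.00962). The 3 IFIT genes, OAS1, OAS3 and OASL are the 6 of the study's 12 qPCR primer genes with at least 1 CPM in both lines. All 6 were called higher, with a median of 1.39. The study chose these genes on samples of this experiment, so they are not independent evidence of the direction.

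**Figure D2:**
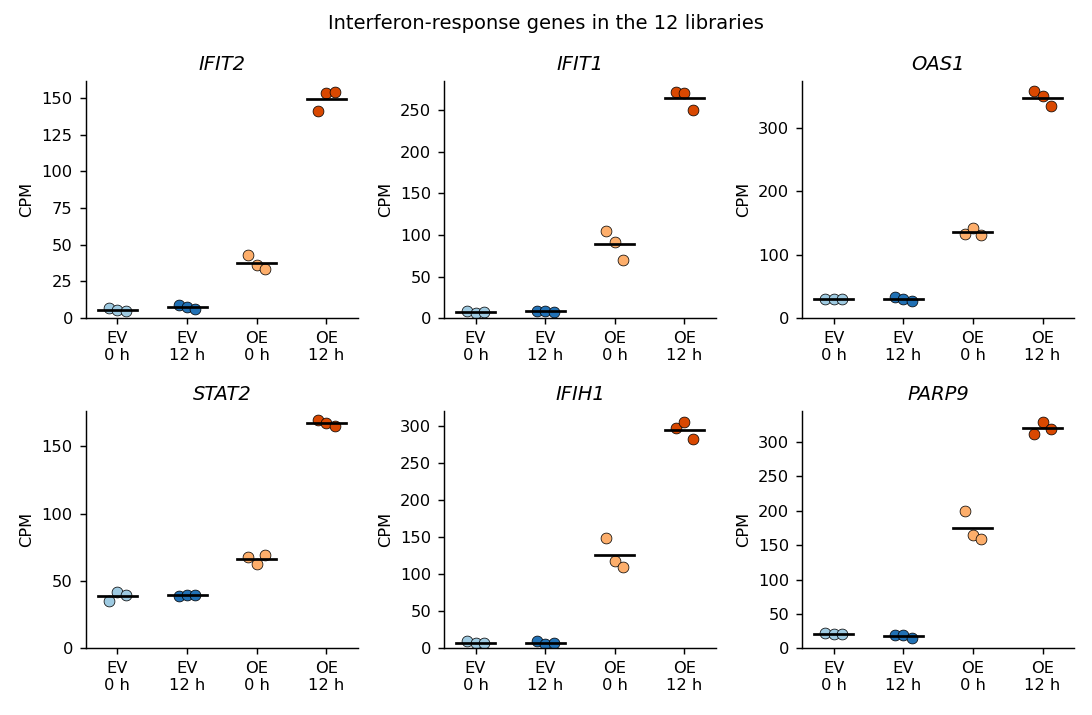
CPM of 6 interferon-response genes in the 12 libraries (points, 3 per group) with group means (bars), for the 2 lines at 0 h and 12 h on linear axes that start at 0. In HCC1937-OE-BRCA1 the treated and untreated libraries are apart for each gene, for example 33.8 to 42.9 CPM against 141 to 154 CPM for IFIT2, while HCC1937-EV stays low.

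Promoter sequences show a feature that the calling of genes did not use. RefSeq promoters (GRCh38.p14, 250 bases before to 50 bases after the start) were searched on both strands for the core of the interferon-stimulated response element, GAAA, any 2 bases, GAAA. The core was found in 996 of 27305 promoters, or 3.65%, and in 2.61% of 9421 promoters of genes with at least 1 CPM in both lines. Of the 26 interferon-list genes called higher, 19 had a promoter in the table and 12 of these held the core (63.2%). It was held by 23 of 53 listed interferon genes that were not called (43.4%), and the shares were not tested against each other. Of the genes called higher outside the lists, 2 of 32 held it (6.25%), and of the genes called lower 0 of 21. Lists of interferon genes are known for this element, so the share is a description and not a test. The 150 bases before the start are shown for 5 called genes with the core in that stretch, with each core in capitals, on the gene's strand, read 5′ to 3′. They stand for IFIT1 (chr10:89392473-89392622, plus strand), IFIT3 (chr10:89327847-89327996, plus strand), HERC5 (chr4:88456969-88457118, plus strand), OAS3 (chr12:112938324-112938473, plus strand) and IFIH1 (chr2:162318685-162318834, minus strand).
IFIT1: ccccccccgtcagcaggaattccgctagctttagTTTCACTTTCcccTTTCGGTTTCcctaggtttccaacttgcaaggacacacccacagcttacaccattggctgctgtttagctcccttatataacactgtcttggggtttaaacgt
IFIT3: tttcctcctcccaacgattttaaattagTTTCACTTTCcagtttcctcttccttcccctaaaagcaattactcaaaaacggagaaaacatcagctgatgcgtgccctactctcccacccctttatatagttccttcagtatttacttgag
HERC5: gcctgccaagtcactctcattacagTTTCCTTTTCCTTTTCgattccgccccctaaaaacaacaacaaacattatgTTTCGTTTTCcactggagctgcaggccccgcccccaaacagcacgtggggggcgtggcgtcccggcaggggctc
OAS3: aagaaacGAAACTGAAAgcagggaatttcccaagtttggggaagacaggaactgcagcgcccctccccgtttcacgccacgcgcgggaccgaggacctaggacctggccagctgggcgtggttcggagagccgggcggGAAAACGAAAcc
IFIH1: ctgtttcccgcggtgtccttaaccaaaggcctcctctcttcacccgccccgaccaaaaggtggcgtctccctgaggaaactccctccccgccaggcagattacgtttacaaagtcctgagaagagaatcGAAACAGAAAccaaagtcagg
The RefSeq starts of IFIT1 and IFIT3 lie inside the gene spans given above, which come from GENCODE. The stretches of IFIT1, HERC5 and OAS3 hold more than 1 core and those of IFIT3 and IFIH1 a single core. The farther and the nearer core start 116 and 103 bases before the start of IFIT1 and 143 and 12 bases before that of OAS3. The letters GAAA stand on the gene's strand in OAS3 and IFIH1 and appear reversed, as TTTC, in IFIT1, IFIT3 and HERC5, where the 2 farther cores of HERC5 share letters.

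HERC5, the ligase that attaches the ubiquitin-like ISG15 to proteins, was at 54.9, 47.8 and 40.6 CPM and then 122, 126 and 123 CPM in HCC1937-OE-BRCA1, against 26.5, 25.7 and 23.005 CPM and 29.8, 24.9 and 23.02 CPM in HCC1937-EV. The difference was 1.32 (SE 0.16, adjusted p = 0.000152), and with USP18 it made 2 calls among 5 measured genes of ISG15 conjugation, whose median was 0.82. ISG15 itself, chosen after its values were seen, was not called at 0.50 (SE 0.28, adjusted p = 0.414). It came to 0.35 without replicate 1 and 0.84 without replicate 3 of HCC1937-EV at 12 h, and to 0.82 (adjusted p = 0.0064), a call, with the GC and length correction. Its change was positive in both lines, 1.15 in HCC1937-OE-BRCA1 and 0.65 in HCC1937-EV. LGALS9, which encodes galectin-9, a ligand of the immune receptor TIM-3, had the largest difference of the effectors, at 1.85 (SE 0.34, adjusted p = 0.0106). It was at 23.8, 33.2 and 30.0 CPM and then 73.0, 64.2 and 63.1 CPM in HCC1937-OE-BRCA1, but at only 2.61, 1.55 and 1.11 CPM and then 1.02, 1.56 and 0.747 CPM in HCC1937-EV. The call of LGALS9 was lost without replicate 1 of untreated HCC1937-EV, the highest library of that line, where the difference was 1.45 (adjusted p = 0.0815). It was also lost with limma's library weights (1.26, adjusted p = 0.0762), in the fit to the 12 libraries (1.85, adjusted p = 0.0708) and without the 4 libraries with the strongest GC trend (1.05, adjusted p = 0.0735).

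Among PARP genes, 2 of 13 measured members were called higher and none lower, with a median of 0.20. Both are interferon-induced relatives of the drug's targets. PARP9, which works in a complex with the ubiquitin ligase DTX3L, was at 199.9, 164 and 159 CPM and then 312, 329 and 318 CPM in HCC1937-OE-BRCA1, against 22.9, 20.2 and 21.4 CPM and 19.6, 20.2 and 14.5 CPM in HCC1937-EV (1.12, SE 0.16, adjusted p = 0.00111). PARP12, a zinc-finger PARP that restricts viruses, gave 0.71 (SE 0.12, adjusted p = 0.00612). DTX3L, named after its value was seen, shares a divergent, overlapping locus with PARP9 and had a difference of 1.06 (SE 0.15, adjusted p = 0.0013), which can hold reads of its neighbour where counting did not use strand. In the DNA-sensing list 2 of 7 measured genes were called. IFI16, a nuclear DNA sensor, had a difference of 1.14 (SE 0.21, adjusted p = 0.0106), with 113, 79.4 and 68.9 CPM and then 149, 167 and 153 CPM in HCC1937-OE-BRCA1 and 30.9, 28.1 and 28.1 CPM and then 26.9, 25.8 and 18.3 CPM in HCC1937-EV. SAMHD1, which breaks down deoxynucleotides, gave 0.79 (SE 0.14, adjusted p = 0.00574). In antigen presentation by MHC class I, the 1 call among 15 measured genes was NLRC5, the transactivator of class I genes, at 0.78 (SE 0.14, adjusted p = 0.00844), while the median of the list was −0.02. Guanylate-binding and APOL genes (3 measured, median 0.45) and chemokines and cytokines (5 measured, median 0.20) had no call, with 2 unadjusted p-values under 0.05 in each, and 6 and 15 of their tested members were below 1 CPM in HCC1937-EV. The most abundant measured members were not called, with differences of 0.84 (SE 0.20, adjusted p = 0.0621) for APOL6 and 0.20 (SE 0.16, adjusted p = 0.592) for CXCL16, and APOL6 was called at 0.60 (adjusted p = 0.000185) with the GC and length correction.

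More genes known to be interferon-induced stood among the calls and were named after their values were seen. Several of them are members of the interferon lists and are already counted among the 26 calls there. They were the tryptophanyl-tRNA synthetase WARS1 (1.06, SE 0.11, adjusted p = 4.96e-05), the RNA helicase-like ZNFX1 (1.21, SE 0.13, adjusted p = 5.51e-05), the giant ubiquitin ligase RNF213 (1.32, SE 0.23, adjusted p = 0.00591), the helicase DDX60L (1.18, SE 0.20, adjusted p = 0.00581), the nuclear-body organizer PML (0.75, SE 0.13, adjusted p = 0.00799) and the phospholipid scramblase PLSCR1 (0.70, SE 0.14, adjusted p = 0.0179). TRIM14 (0.77) and the intracellular antibody receptor TRIM21 (1.05), both of the antiviral TRIM family, and BTN3A1 (0.99), a butyrophilin that presents phosphoantigens to gamma-delta T cells, belonged to this group too. ADARB1, another adenosine deaminase that edits RNA, was picked with its value in view and had a difference of 0.64 (SE 0.12, adjusted p = 0.0158). IRF1-AS1 had the fifth-largest called difference at 1.80 (SE 0.30, adjusted p = 0.00455), but it lies antisense to IRF1 and overlaps it, so its reads cannot be told from those of IRF1 without strand. In the fit to the 12 libraries alone the calls of IFIH1 (adjusted p = 0.068), OASL (0.0777), PARP12 (0.0708), and of IFI16, NLRC5 and PML (0.0712 each) were lost, while these 6 held in the other 18 alternatives. The calls of PLSCR1, TRIM21 and ADARB1 held in 9, 8 and 8 of the 12 leave-one-out fits.

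The list-wide view set the interferon groups beside other groups of genes. NF-kB subunits and targets (24 measured, median 0.05), homologous recombination and Fanconi anaemia genes (37, median 0.05), p53 targets (24, median 0.07), DNA replication genes (51, median 0.00) and spliceosome genes (71, median −0.08) had no call in either direction. Unadjusted p-values under 0.05 numbered 5, 2, 3, 8 and 12 in these lists, beside 2278 over all 12307 genes. The 2 most abundant members of each list were not called, and not all of them are given here. Those given had differences of 0.14 (SE 0.13, adjusted p = 0.63) for the NF-kB target TNFAIP2, 0.18 (SE 0.16, adjusted p = 0.618) for the checkpoint gene TOPBP1 and 0.28 (SE 0.13, adjusted p = 0.329) for the TRAIL receptor gene TNFRSF10B. The values were −0.61 (SE 0.27, adjusted p = 0.308) for the pro-apoptotic gene BAX, 0.28 (SE 0.11, adjusted p = 0.245) for the replicative helicase gene MCM4 and −0.28 (SE 0.12, adjusted p = 0.281) for the splicing repressor HNRNPA1. BAX came to −0.84 (adjusted p = 0.0381), a lower call, without replicate 1 of untreated HCC1937-OE-BRCA1 and to −0.35 without replicate 3 of HCC1937-EV at 12 h, and it was also called without the 4 libraries with the strongest GC trend. MCM4 was called higher by limma. A missing call does not show that these genes responded alike.

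**Figure D3:**
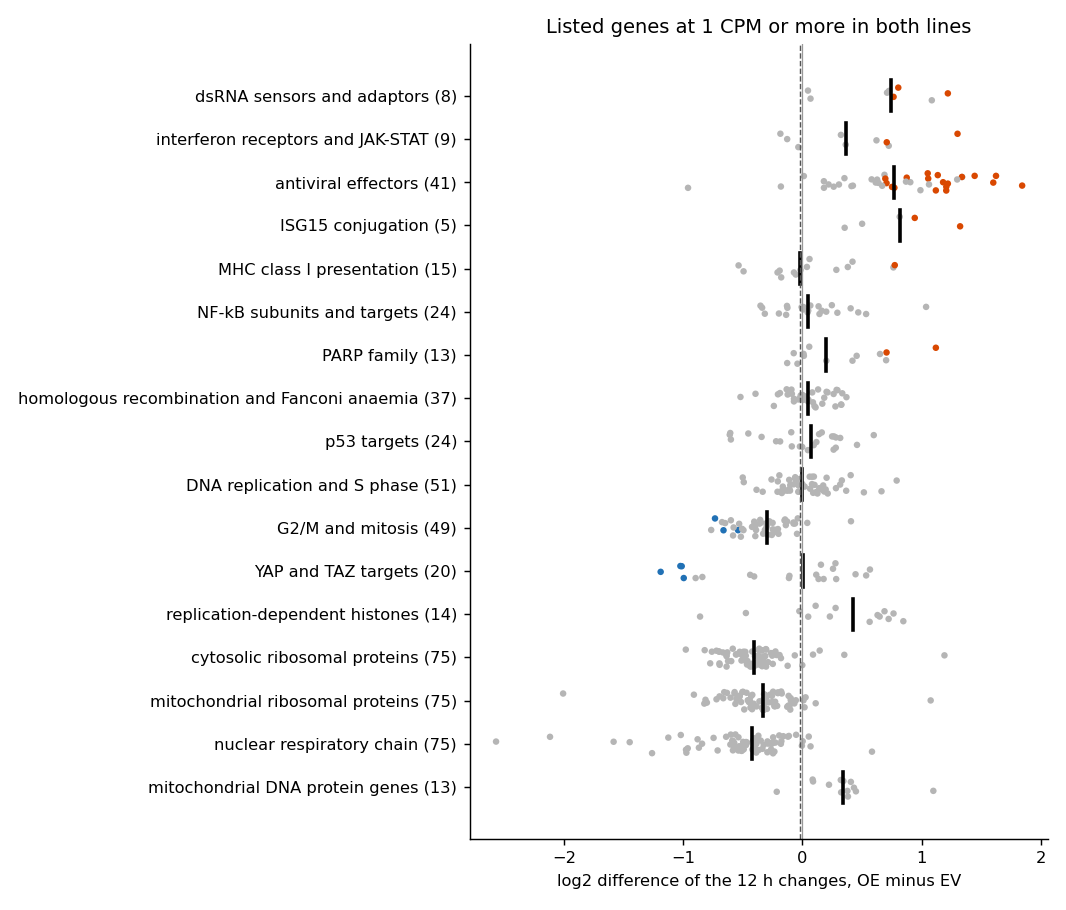
Difference of the 12 h changes (log2, OE minus EV) for each listed gene with at least 1 CPM in both lines, with the number measured in brackets and medians as black bars. Orange points were called higher and blue points lower, the dashed line is the median of all 12307 genes, and the antiviral effectors stand out with a median of 0.77 and 18 calls.

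Outside the interferon lists, 42 genes were called higher, with a median difference of 0.95, and the largest called differences were among them. TNFRSF19, a receptor of the TNF superfamily known as a Wnt target, was at 0.369, 0.616 and 0.315 CPM in HCC1937-OE-BRCA1 at 0 h and 3.14, 2.90 and 2.29 CPM at 12 h, against 5.28, 5.38 and 5.61 CPM and 4.42, 7.38 and 4.48 CPM in HCC1937-EV. The difference was 2.65 (SE 0.40, adjusted p = 0.00202), but this gene reached a mean of 1 CPM in HCC1937-OE-BRCA1 only through its treated libraries. TCIM, a small regulator linked to Wnt signalling, was at 2.59, 2.46 and 1.76 CPM and then 10.6, 12.5 and 10.1 CPM in HCC1937-OE-BRCA1. In HCC1937-EV it lay at 11.7, 10.4 and 13.9 CPM and then 16.2, 10.5 and 9.64 CPM, so that at 12 h the 2 lines overlapped. Its difference was 2.27 (SE 0.29, adjusted p = 0.000278). FZD4, a Frizzled receptor for Wnt ligands and norrin, was at 6.10, 5.61 and 5.35 CPM and then 16.8, 16.8 and 17.03 CPM in HCC1937-OE-BRCA1 and at 8.39, 8.34 and 7.89 CPM and then 9.80, 9.25 and 7.67 CPM in HCC1937-EV (1.45, SE 0.20, adjusted p = 0.00108). These 3 genes were lower in HCC1937-OE-BRCA1 than in HCC1937-EV in every untreated library.

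MDGA1, a membrane-anchored regulator of synaptic adhesion, was at 8.74, 10.1 and 11.5 CPM and then 30.2, 25.7 and 27.7 CPM in HCC1937-OE-BRCA1 and between 1.06 and 2.30 CPM in the HCC1937-EV libraries (1.82, SE 0.28, adjusted p = 0.00224). TRANK1 was at 9.85, 9.30 and 11.1 CPM and then 35.6, 34.2 and 36.9 CPM in HCC1937-OE-BRCA1 and at 7.83, 6.43 and 6.91 CPM and then 6.28, 9.06 and 7.33 CPM in HCC1937-EV (1.72, SE 0.20, adjusted p = 7.74e-05). CYP24A1, the enzyme that inactivates vitamin D, was at 1.05, 1.11 and 0.504 CPM and then 3.58, 2.66 and 3.11 CPM in HCC1937-OE-BRCA1, and its mean there passed 1 CPM through the treated libraries. In HCC1937-EV it was at 3.79, 3.89 and 3.82 CPM and then 4.42, 3.56 and 3.73 CPM, and the difference was 1.78 (SE 0.33, adjusted p = 0.0106). With the exception of CYP24A1 in the fit to 12 libraries (adjusted p = 0.067), the calls of these 6 genes held in all 19 alternative fits. Other calls, named after their values were seen, were the neuronal pentraxin NPTX1 (1.29, SE 0.21, adjusted p = 0.00282), the matricellular SMOC1 (1.09, SE 0.16, adjusted p = 0.00186), the pro-apoptotic BCL2L11, which encodes BIM (0.75, SE 0.16, adjusted p = 0.0406), and the matrix glycoprotein tenascin C, encoded by TNC. The difference of TNC, 1.13 (SE 0.25, adjusted p = 0.0458), came mostly from HCC1937-EV, where the change was −0.88, against 0.25 in HCC1937-OE-BRCA1. The calls of BCL2L11 and TNC each held in 3 of 12 leave-one-out fits. That of NPTX1 held in all 12 but was lost with limma's library weights (adjusted p = 0.0603).

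Genes with a lower change in HCC1937-OE-BRCA1 included several for surface and secreted proteins. AXL, a receptor tyrosine kinase tied to drug resistance and invasion, was at 18.04, 17.7 and 23.6 CPM at 0 h and 7.73, 8.89 and 9.92 CPM after 12 h in HCC1937-OE-BRCA1. In HCC1937-EV it was higher and its groups overlapped, at 53.1, 70.2 and 63.7 CPM and 53.6, 68.6 and 69.1 CPM. The difference was −1.19 (SE 0.20, adjusted p = 0.00504). F3, which encodes tissue factor, the starter of coagulation, was at 234, 216 and 189.7 CPM and then 91.4, 99.4 and 101 CPM in HCC1937-OE-BRCA1, against 14.7, 12.4 and 14.1 CPM and 14.9, 11.9 and 11.5 CPM in HCC1937-EV (−1.03, SE 0.16, adjusted p = 0.00257). CCN1, a secreted matricellular protein, had similar levels in both lines, at 58.2, 75.0 and 70.2 CPM and then 31.0, 32.0 and 35.0 CPM in HCC1937-OE-BRCA1 and 49.6, 56.7 and 50.02 CPM and then 47.6, 46.5 and 58.0 CPM in HCC1937-EV (−1.01, SE 0.16, adjusted p = 0.00257). AXL, F3, CCN1 and FJX1 (−0.997, SE 0.20, adjusted p = 0.0215) are known targets of the Hippo-pathway coactivators YAP and TAZ, and FJX1 and a list of 22 such targets were chosen after the values were seen. Of 20 measured members the same 4 were called lower and none higher, and the median was 0.00, with 10 positive and 10 negative differences and 11 unadjusted p-values under 0.05. CCN2, another classical target picked with its value in view, was not called, at 0.57 (SE 0.22, adjusted p = 0.256). The uncalled members farthest below 0 were GADD45A (−0.90, SE 0.22, adjusted p = 0.0672), which was called lower in 6 of 19 alternative fits, and TGFB2 (−0.84, SE 0.32, adjusted p = 0.236), called lower in 1 of them.

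Further genes among the 10 lowest were JPH2, which encodes junctophilin 2 (−1.19, SE 0.19, adjusted p = 0.00257), BDNF, a neurotrophin (−1.22, SE 0.26, adjusted p = 0.0371), and FGD3, an exchange factor for Cdc42 (−1.35, SE 0.31, adjusted p = 0.0488). JPH2 was at 23.9, 29.8 and 32.2 CPM and then 16.5, 14.3 and 14.8 CPM in HCC1937-OE-BRCA1 and at 20.9, 23.2 and 24.2 CPM and then 22.9, 29.1 and 30.6 CPM in HCC1937-EV. The calls of AXL, F3, CCN1 and JPH2 held in all 19 alternative fits, while those of BDNF and FGD3 each held in 4 of the 12 leave-one-out fits and that of FJX1 in 5. TPM1, a tropomyosin of the actin cytoskeleton (−0.80, SE 0.14, adjusted p = 0.00574), the secreted ligand WNT5A (−0.93, SE 0.20, adjusted p = 0.0406) and the Notch ligand JAG2 (−1.01, SE 0.23, adjusted p = 0.0458) were also called and were named after their values were seen. Their calls held in 12, 4 and 2 of these fits.

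**Figure D4:**
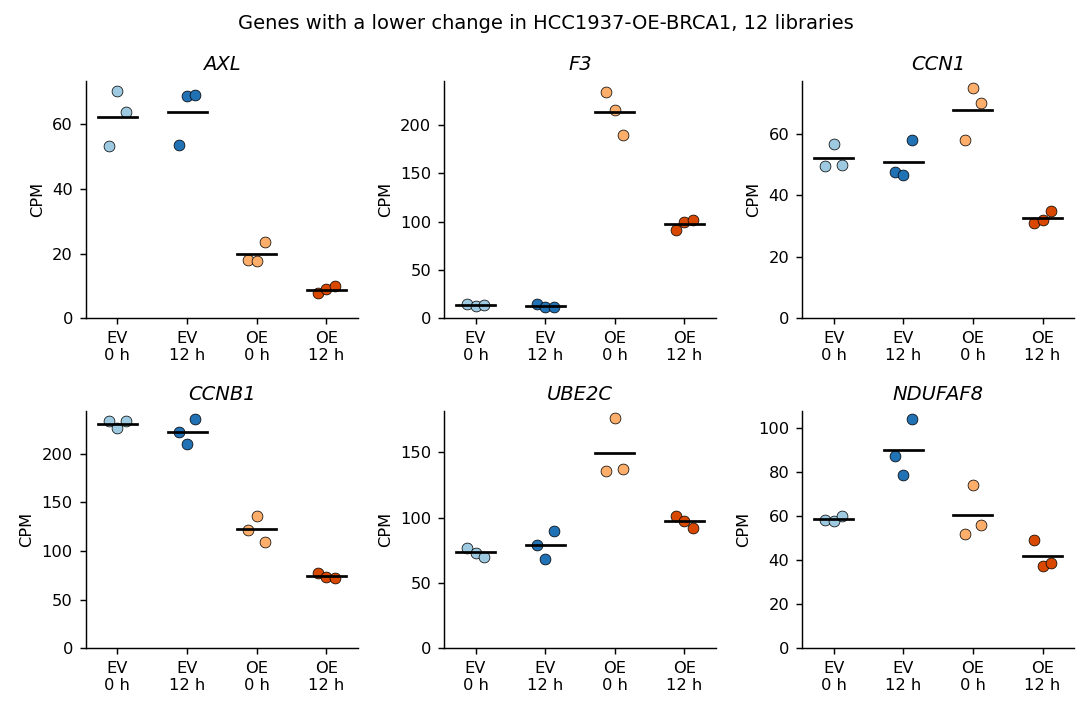
CPM of 6 genes called lower in the 12 libraries (points, 3 per group) with group means (bars), on linear axes that start at 0. Within HCC1937-OE-BRCA1 the treated libraries lie below the untreated ones for each gene, for example 31.0 to 35.0 CPM against 58.2 to 75.0 CPM before treatment for CCN1, and for NDUFAF8 the treated HCC1937-EV libraries also lie above their untreated ones, at 78.8 to 104.2 CPM against 57.6 to 60.1 CPM.

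Mitotic genes leaned to a lower change in HCC1937-OE-BRCA1. Of 49 measured genes of G2/M and mitosis 3 were called lower and none higher, 47 differences were negative, 19 had an unadjusted p under 0.05, and the median was −0.30, against −0.02 over the 12307 genes. The median change was −0.43 in HCC1937-OE-BRCA1 and −0.07 in HCC1937-EV. Per library the median deviation of the 49 genes was −0.43, −0.38 and −0.40 in treated HCC1937-OE-BRCA1 and 0.05, −0.11 and −0.21 in treated HCC1937-EV, whereas untreated libraries ranged from −0.13 to 0.18. CCNB1, which encodes cyclin B1, was at 122, 136 and 109 CPM and then 77.7, 73.3 and 72.2 CPM in HCC1937-OE-BRCA1, against 234, 226 and 234 CPM and 223, 210.2 and 236 CPM in HCC1937-EV (−0.66, SE 0.14, adjusted p = 0.0239). UBE2C, the ubiquitin-conjugating enzyme of the anaphase-promoting complex, was at 136, 176 and 137 CPM and then 101, 97.5 and 92.1 CPM, against 77.0, 72.9 and 69.9 CPM and 79.1, 68.4 and 89.8 CPM (−0.73, SE 0.16, adjusted p = 0.04). The mitotic kinase gene AURKA gave −0.54 (SE 0.12, adjusted p = 0.0477). These 3 calls held in 6, 4 and 2 of the 12 leave-one-out fits. With the GC and length correction 15 of the 49 genes were called lower and the median was −0.355. The median was −0.17 without replicate 1 of untreated HCC1937-OE-BRCA1 and −0.19 without replicate 1 of treated HCC1937-EV, and it reached −0.42 without replicate 3 of the latter. No gene of the list was called in the fit to the 12 libraries, against 3 by edgeR over 18 libraries and 10 by DESeq2. CDK1 (−0.65, SE 0.19, adjusted p = 0.142) and the proliferation marker gene MKI67 (0.41, SE 0.21, adjusted p = 0.369) were not called. With the GC and length correction CDK1 was called at −0.53 (adjusted p = 0.000528), and MKI67 was at 0.09 (adjusted p = 0.763). Both were picked after their values were seen. Outside the list, the mitotic kinase gene NEK2 (−0.75, SE 0.14, adjusted p = 0.00986) and KPNA2, which encodes an importin alpha (−0.52, SE 0.11, adjusted p = 0.0391), were called lower and were named after their values were seen. The call of KPNA2 held in 4 of the 12 leave-one-out fits, and that of NEK2 in all 12 but not in the fit to the 12 libraries (adjusted p = 0.0712).

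Genes for mitochondrial and ribosomal proteins formed another broad tendency, but none of them was called in the lists. Nuclear genes of the respiratory chain had a median difference of −0.42 over 75 measured genes, of which 71 were negative and 30 had an unadjusted p under 0.05. Over all 12307 genes, 6499 differences were negative and 2278 had an unadjusted p under 0.05. Cytosolic ribosomal protein genes had a median of −0.41 (71 of 75 negative, 36 with an unadjusted p under 0.05) and mitochondrial ribosomal protein genes one of −0.33 (70 of 75 negative, 31). The differences came from HCC1937-EV more than from HCC1937-OE-BRCA1, with median changes of 0.35 and −0.08 for the respiratory genes and 0.28 and −0.12 for the cytosolic ribosomal genes. The 13 protein genes of mitochondrial DNA went the other way, with a median of 0.34, 12 positive differences and 7 unadjusted p-values under 0.05, from changes of −0.29 in HCC1937-EV and 0.08 in HCC1937-OE-BRCA1. Examples without a call were −0.71 (SE 0.25, adjusted p = 0.209) for CYC1 (cytochrome c1), −0.78 (SE 0.29, adjusted p = 0.243) for the ribosomal gene RPL8 and 0.43 (SE 0.15, adjusted p = 0.215) for the complex I gene MT-ND4. With the GC and length correction CYC1 (−0.39, adjusted p = 0.0344) and MT-ND4 (0.55, adjusted p = 0.0193) were called. CYC1 and RPL8 were also called without replicate 1 of untreated HCC1937-OE-BRCA1, and MT-ND4 without replicate 1 of HCC1937-EV at 12 h.

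Libraries of 1 group differed from each other in these same genes. The median deviation of the respiratory genes was 0.20, 0.23 and 0.56 in the 3 treated HCC1937-EV libraries, and −0.28, 0.28 and −0.01 in the 3 untreated HCC1937-OE-BRCA1 libraries, a spread as wide as the difference itself. The part of this spread in the list medians was not tested. Levels also followed the GC content of genes within groups. The rank correlation, across genes, of GC content with a library's deviation from the mean of the 6 libraries of its line (Spearman) ran from −0.675 in replicate 1 of untreated HCC1937-OE-BRCA1 to 0.685 in replicate 3 of treated HCC1937-EV. Over 10 groups of genes ordered by GC content, the median change in HCC1937-EV went from −0.10 to 0.27, that in HCC1937-OE-BRCA1 stayed between −0.08 and 0.04, and the median difference fell from 0.01 in the lowest group to −0.26 in the highest. With the GC and length correction the medians were −0.36 for the respiratory, −0.35 for the cytosolic ribosomal and −0.22 for the mitochondrial ribosomal genes. Without replicate 2 of untreated HCC1937-OE-BRCA1 the medians were −0.27 for the respiratory and −0.25 for the cytosolic ribosomal genes, and without replicate 1 of treated HCC1937-EV that of the mitochondrial DNA genes was 0.59.

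**Figure D5:**
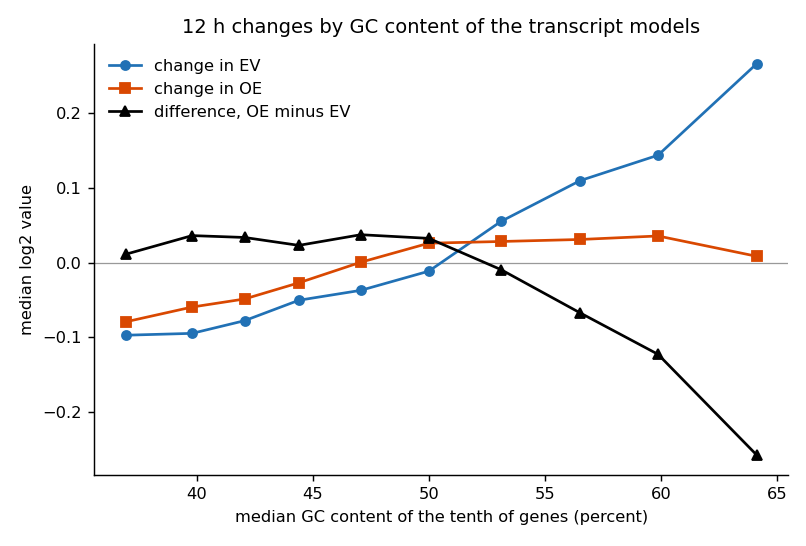
Median log2 change at 12 h in each line, and the median difference, for 10 groups of genes ordered by GC content (median GC content in percent on the horizontal axis). The line for HCC1937-EV climbs from −0.10 to 0.27, and the difference drops to −0.26 in the group with the highest GC content.

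Single genes of mitochondrial function were nevertheless among the calls. NDUFAF8, an assembly factor of respiratory complex I, was at 58.5, 57.6 and 60.1 CPM in HCC1937-EV at 0 h and 87.1, 78.8 and 104 CPM at 12 h, and at 52.0, 74.0 and 55.9 CPM and then 49.2, 37.5 and 38.9 CPM in HCC1937-OE-BRCA1. Treated and untreated libraries did not overlap in either line, with changes of 0.62 and −0.53 and a difference of −1.15 (SE 0.22, adjusted p = 0.0136). COA6, needed for cytochrome c oxidase (−0.92, SE 0.19, adjusted p = 0.0288), and IMMP2L, a peptidase of the inner membrane (−0.996, SE 0.22, adjusted p = 0.0454), were named after their values were seen. The zinc-finger gene ZNF511 had the largest change of the called genes in HCC1937-EV, 1.14, from 4.22, 5.69 and 3.70 CPM to 8.13, 10.1 and 11.8 CPM, beside −0.18 in HCC1937-OE-BRCA1 (−1.32, SE 0.27, adjusted p = 0.0252). Its call held in 5 of 12 leave-one-out fits, those of NDUFAF8 and COA6 in 9 and 6, and that of IMMP2L in 3. The pseudogenes GCSHP5 (−1.19) and RPL6P27 (−1.06) completed the 10 lowest, with calls that held in 8 and 4 of these fits, and their values are uncertain, since reads may be shared with the parent genes. Counts of further named genes are also uncertain, because other annotated genes overlap them, on the other strand as for the IFIT genes unless stated. Among called genes these are IRF1, TRIM25, SAMHD1, WARS1, ZNFX1, RNF213, DDX60L, TRIM14, ADARB1, SMOC1, BCL2L11, FZD4, WNT5A, BDNF, ZNF511, COA6 and GCSHP5, and TRIM25 and RNF213 also have an overlap on their own strand. Among genes that were not called they are BRCA1, IRF3, EIF2AK2, ISG15, IFNE, CXCL16, TNFRSF10B, HNRNPA1, MT-ND4 and KRT8. Of these, BRCA1 has overlaps on both strands, and IFNE, HNRNPA1 and MT-ND4 have one on their own strand only. The 26 genes called lower had a median transcript length of 2370 bases, against 4744.5 bases for the 68 called higher.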

How the data were processed

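RNA was extracted with TRIzol and libraries were made with NEBNext Ultra II, per the labels. The authors deposited raw gene counts, 1 column for each library, and the 18 single tables were identical to the joint table. The submitters' processing notes name HISAT2, featureCounts, DESeq2 and GRCh38 (hg38). Versions, annotation and strand setting are not given in the sources used here. Of the 35044 identifiers, 34966 had a symbol and 33888 were found in GENCODE 29. Coordinates are those of GRCh38.

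Counts of all 18 libraries were fitted with edgeR 4.0.16 in R 4.3.3 (TMM, filterByExpr by group, 1 mean for each group, quasi-likelihood test), and p-values were adjusted by the Benjamini-Hochberg procedure over 18335 genes. All adjusted p-values are from this fit unless another is named. SE is the standard error of a log2 value. The common biological coefficient of variation was 12.9%. Total counts of the 12 libraries had a median of 16077299. The scripts were tested on simulated counts with the same spread for all genes and no trend on GC content or length. That test does not show the error rate for libraries with such trends. Alternatives used DESeq2 1.42.0, limma 3.58.1 and trends on GC content and length with mgcv 1.9.3.

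Named were BRCA1, the 10 largest called differences in each direction, up to 4 called members of each gene list by size of difference, or up to 2 by level where none was called, and the primer genes. Genes outside this rule are marked in the text, and some genes that it names are not reported here. The contrast, its genes and the lists were chosen with earlier results of these data known.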

Additional observations from a re-analysis of the deposited data

Results flagged for a closer look

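The named genes whose 12 h change differed between HCC1937-OE-BRCA1 and HCC1937-EV by the test of the difference itself (edgeR's quasi-likelihood test, adjusted p under 0.05) numbered 62, of which 41 were higher and 21 lower. The adjusted p lay between 5.27e-06 and 0.0464 for the former and between 0.00257 and 0.0488 for the latter. All values below are log2 differences, HCC1937-OE-BRCA1 minus HCC1937-EV, and no cause was tested for any of them.

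Sensors and signalling genes of the interferon response with a higher change were IFIH1 (1.22), ADAR (0.80), TRIM25 (0.77), IRF1 (0.68), STAT2 (1.30) and USP18 (0.94). Antiviral effectors and relatives were IFIT1 (1.45), IFIT2 (1.63), IFIT3 (1.60), OAS1 (1.34), OAS3 (1.21), OASL (0.88), HERC5 (1.32) and LGALS9 (1.85). Genes of ADP-ribosylation, antigen presentation and nuclear immunity were PARP9 (1.12), PARP12 (0.71), DTX3L (1.06), NLRC5 (0.78), BTN3A1 (0.99), IFI16 (1.14), SAMHD1 (0.79) and PML (0.75). Ligases, helicases and other genes known to be interferon-induced were RNF213 (1.32), ZNFX1 (1.21), DDX60L (1.18), WARS1 (1.06), PLSCR1 (0.70), TRIM14 (0.77) and TRIM21 (1.05). Genes outside these groups were ADARB1 (0.64), the antisense RNA gene IRF1-AS1 (1.80), TNFRSF19 (2.65), TCIM (2.27), FZD4 (1.45), MDGA1 (1.82), CYP24A1 (1.78), TRANK1 (1.72), NPTX1 (1.29), SMOC1 (1.09), BCL2L11 (0.75) and TNC (1.13).

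Mitotic genes and the importin gene with a lower change were CCNB1 (−0.66), UBE2C (−0.73), AURKA (−0.54), NEK2 (−0.75) and KPNA2 (−0.52). Genes of the surface, the matrix and the cytoskeleton were AXL (−1.19), F3 (−1.03), CCN1 (−1.01), FJX1 (−0.997), WNT5A (−0.93), JAG2 (−1.01), TPM1 (−0.80) and JPH2 (−1.19). Mitochondrial genes were NDUFAF8 (−1.15), COA6 (−0.92) and IMMP2L (−0.996). The other genes with a lower change were BDNF (−1.22), FGD3 (−1.35), ZNF511 (−1.32), GCSHP5 (−1.19) and RPL6P27 (−1.06).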

How the results depend on the processing

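Against 68 higher and 26 lower calls among genes with at least 1 CPM in both lines, DESeq2 size factors gave 68 and 25, and 87 and 33 were called with at least 10 counts in every library. The calls numbered 221 and 377 with no filter on low counts (253 and 391 over all tested genes, against 69 and 26), 204 and 142 by DESeq2's Wald test (211 and 146), 165 and 151 with limma's library weights (173 and 160), 31 and 6 in the fit to the 12 libraries (31 and 6), and 35 and 11 with a difference over 1 (36 and 11). With the GC and length correction, which left out 259 genes, there were 257 and 380 (277 and 391), and 64 of the 68 and 26 of the 26 remained. Without the 4 libraries with the strongest GC trend, an alternative chosen after seeing the data, there were 142 and 222 (147 and 223).

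The 26 listed interferon genes became 16 in the fit to 12 libraries, 44 with the GC and length correction, 45 with that correction and the replicate block, and 15 with a difference over 1. The 3 mitotic genes became 7 with no filter, 10 by DESeq2, 9 with library weights, 0 in the fit to 12 libraries, 15 with the correction, 16 with the correction and the block, 9 without the 4 libraries and 0 with a difference over 1. In the leave-one-out fits the higher calls ranged from 41 to 261 (42 to 286 over all tested genes), the lower calls from 6 to 475 (6 to 486), the interferon calls from 22 to 39 and the mitotic calls from 0 to 10. No difference of a called gene changed sign, 43 of the 94 calls held with every library left out, and 32 held in all 19 alternatives. The causes were not tested.

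The replicate numbers are not stated to pair libraries and were not taken as pairs. Deviations of same-numbered 0 h and 12 h libraries had correlations of 0.33, −0.03 and 0.06 in HCC1937-EV and −0.44, −0.14 and 0.03 in HCC1937-OE-BRCA1. These values cannot decide whether libraries were paired, because levels also followed the GC content of genes within groups. With the replicate block 66 and 10 genes were called (67 and 10 over all tested genes, 1 mitotic gene), of which 57 and 8 were among the 68 and 26, and with the GC and length correction and the block 238 and 321 (254 and 327). The 44 listed interferon genes below 1 CPM in HCC1937-EV were tested, but their single values are not reported. Nothing here separates BRCA1 from the other differences between the lines.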

Other observations

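Further gene groups gave no call in either direction over the 18 libraries. Replication-dependent histone genes had a median difference of 0.42 over 14 measured genes, of which 11 were positive and 7 had an unadjusted p under 0.05, from median changes of −0.17 in HCC1937-OE-BRCA1 and −0.49 in HCC1937-EV. The H2A gene H2AC6 was at −0.33 and −0.98, with a difference of 0.65 (adjusted p = 0.0599), and it was called at 0.74 (adjusted p = 0.00831) with the GC and length correction. Proteasome genes had a median of −0.24 (28 of 31 negative, 5 with an unadjusted p under 0.05). This median ranged from −0.29 to −0.15 in the leave-one-out fits. The subunit gene PSMA7 was at −0.71 (adjusted p = 0.258). It was called lower at −0.95 (adjusted p = 0.0304) without replicate 1 of untreated HCC1937-OE-BRCA1. PSMA7 ranged from −0.95 to −0.45 in these fits, and the GC and length correction gave −0.505 (adjusted p = 0.113).

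Medians lay closer to that of all genes for cholesterol and fatty acid synthesis (0.12 over 28 genes), the integrated stress and unfolded protein response (0.10 over 26), NRF2 targets (−0.11 over 16), glycolysis and hypoxia (−0.17 over 27), keratinocyte differentiation (0.02 over 8, with 27 more below 1 CPM in HCC1937-EV) and AP-1 and immediate early genes (0.01 over 18). Unadjusted p-values under 0.05 numbered 4, 6, 0, 3, 2 and 8 in these lists, beside 2278 over all 12307 genes. Hormone receptor genes and ERBB2 (0.25 over 4 measured genes) were not called either, and their median was 0.40 without replicate 2 and 0.14 without replicate 3 of HCC1937-EV at 12 h.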
